A study of Mus musculus with 249 samples.

Results

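Neutrophil-transcript-rich brains were the 40 brains, of 249 in the series, in which the mRNAs of Ngp and S100a9 were most abundant together, and neutrophil-transcript-poor brains were the 62 in which they were least abundant. The members were chosen by these measured values and not by any label: each gene was scaled over the arrays to a mean of 0 and an SD of 1 (a z value), and the mean z of the pair was the score of a brain. The 146 brains of intermediate score belonged to neither set. The array of animal 144 was left out by the rule before scaling.

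All animals, rich, intermediate and poor alike, came from 1 F2 intercross of the mouse strains C57BL/6J and C3H/HeJ. Both parental strains were ApoE null, so every animal lacked functional apolipoprotein E, a carrier of blood lipids. Females and males ate a high-fat Western diet between 8 and 24 weeks of age, and no group in the cross went without the deletion or the diet. The labels give neither sex, genotype nor blood removal for each animal, and no cell type was purified from the brain tissue. Each animal's RNA (Cy3) was hybridised on its own array against a pool of RNA of all samples (Cy5). Values are log10 ratios of animal over pool, 1 array per animal, so a difference of 0.301 between brains is 2-fold.

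Neutrophils are short-lived white blood cells that mature in bone marrow and kill microbes with proteins stored in granules. Precursors in the marrow make the mRNAs of these granule proteins in waves, primary granules before secondary ones, and mature cells in blood have largely shut most of them down, while the mRNAs of the calcium-binding pair S100a8 and S100a9 persist. A healthy brain holds few neutrophils within its tissue, and most lie in vessels, the meninges and the marrow of the skull. Ngp encodes a secondary granule protein of the cathelin family, and S100a9 encodes the partner of S100a8 in calprotectin.

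The log10 ratio of Ngp had a lowest value of 0.0194, a median of 0.294 and a highest value of 0.822 in rich brains, against -0.911, -0.600 and -0.334 in poor brains. That of S100a9 had a lowest value of -0.117, a median of 0.120 and a highest value of 0.668 in rich brains, against -1.09, -0.687 and -0.463 in poor brains. The ratio of the set means was 9.54-fold for Ngp and 7.65-fold for S100a9, a description of how the sets were made, with no test. Each gene was read by 1 probe.

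The score ran between 0.920 and 3.00 in rich brains (median 1.49) and between -2.18 and -0.732 in poor brains (median -1.14). No gap separated the sets from the intermediate brains. The 3 rich brains nearest the boundary scored 0.920, 0.969 and 0.973, and the 3 intermediate brains nearest to them scored 0.908, 0.902 and 0.898. On the poor side the 3 nearest members scored -0.732, -0.743 and -0.755, and the 3 nearest intermediate brains scored -0.729, -0.712 and -0.711.

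**Figure D1:**
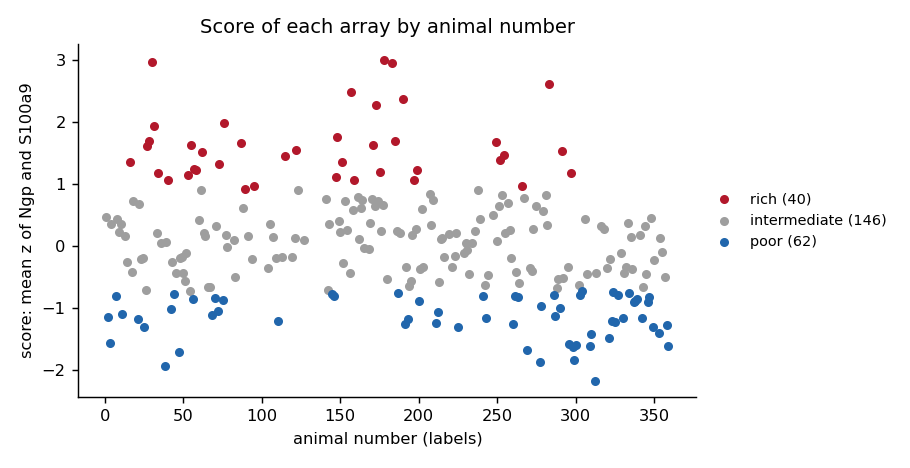
Score of each brain but that of animal 144 (vertical axis, mean z of Ngp and S100a9, no unit) against the animal number in the labels (horizontal axis), with 40 rich brains in red, 62 poor brains in blue and 146 intermediate brains in grey. The score is continuous, and rich brains lie mostly among the lower animal numbers and poor brains mostly among the higher.

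Arrays of the rich and poor sets differed in other measures, given here because they move with the results. The mean animal number was 136 ± 84.2 in rich brains and 223 ± 119 in poor brains (SD, n = 40 and 62, 2-sided permutation test with 100000 resamples, adjusted p = 0.0004 over 4 measures). Cut in rising order of animal number into 4 number groups of 62 arrays, the sets held 14, 17, 6 and 3 rich brains and 15, 5, 13 and 29 poor brains. The labels do not say what the numbers stand for. The SD over the probes of an array averaged 0.0844 in rich brains and 0.0806 in poor brains (adjusted p = 0.624). Its highest value was 0.258 in rich brains and 0.117 in poor brains. Array medians averaged 0.00420 in rich brains and 0.00397 in poor brains (adjusted p = 0.730), and missing values averaged 145 in rich brains and 168 in poor brains (adjusted p = 0.375). A red cell score, the mean z of the 10 measured genes of a red cell list that includes Hemgn and Slc4a1, had a median of 0.229 in rich brains (between -0.959 and 2.64) and of -0.128 in poor brains (between -1.26 and 1.11). Eif2s3y, a Y-linked translation factor gene, lay above -0.5 in 34 of 40 rich, 74 of 146 intermediate and 13 of 62 poor brains, with no brain between -1.17 and -0.0691. The part of animal number, red cell transcripts and Y-linked level in the results was not tested, and the values of the main genes with these terms in the fit are given below.

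Of the 11506 other genes measured, 37 rose in rich brains relative to poor brains, which is 0.322% of the genes tested, and 5 fell, which is 0.0435% (limma, adjusted p under 0.05 with Benjamini-Hochberg adjustment over all of them). At an unadjusted p under 0.05 there were 833 genes. The median difference over all genes was 0.00130 on the log10 scale, with 54.1% of genes above 0. Of the genes that rose, 19 did so by at least 0.1 on the log10 scale (1.26-fold), and 1 of the genes that fell did. The values of these genes come from the same hybridisations as the score, and in bulk tissue a change in the number of cells of a type and a change in RNA per cell cannot be told apart.

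**Figure D2:**
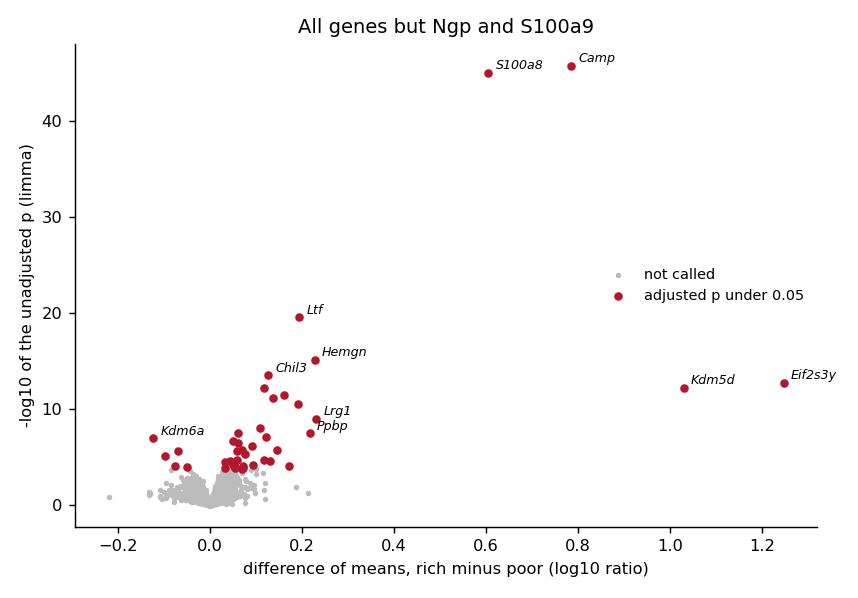
Difference of the set means, rich minus poor, in log10 ratio (horizontal axis) against -log10 of the unadjusted limma p (vertical axis) for the 11506 genes other than Ngp and S100a9, with the 42 genes at adjusted p under 0.05 in red. Camp and S100a8 stand far above all other genes in p, and the Y-linked genes Eif2s3y and Kdm5d have the largest differences.

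Camp and S100a8 had the smallest p of all genes and were the called genes whose values did not overlap between the sets. Camp encodes cathelicidin, the antimicrobial peptide precursor of secondary granules. Its log10 ratio had a lowest value of -0.00531, a median of 0.290 and a highest value of 0.911 in rich brains, against -0.678, -0.453 and -0.231 in poor brains. Every rich brain lay above every poor brain, and the intermediate brains spanned -0.497 to 0.204. The mean was 0.327 ± 0.213 in rich brains and -0.457 ± 0.0980 in poor brains (SD, n = 40 and 62), a difference of 0.785 ± 0.0307 (SE), or 6.09-fold (95% interval 5.29 to 7.01, limma, adjusted p = 1.95e-42).

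S100a8, the other subunit of calprotectin, had a lowest value of -0.0267, a median of 0.160 and a highest value of 0.654 in rich brains, against -0.602, -0.408 and -0.211 in poor brains. The sets again did not overlap, and the spread within rich brains (SD 0.171) exceeded that within poor brains (SD 0.0722). The difference was 0.605 ± 0.0241 (SE), or 4.03-fold (95% interval 3.61 to 4.50, limma, adjusted p = 4.98e-42).

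Both genes lie near a gene of the score. S100a8 is the next measured gene to S100a9 on chromosome 3, and Camp and Ltf lie 8 and 10 measured genes from Ngp on chromosome 9. Of the 40 measured genes nearest to Ngp (20 on each side), those 2 rose and the other differences ran between -0.0211 and 0.0323. Of the 40 nearest to S100a9, only S100a8 rose, and the others ran between -0.0181 and 0.188, the highest being S100a5, an olfactory S100 gene (adjusted p = 0.551). The background for these counts is the 0.322% above.

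The promoters of these neighbours are shown because these genes lie near one another on chromosomes 9 and 3 and were high in the same brains. Each is 300 bases around the start site, 5′ to 3′ on the gene's own strand, from RefSeq on GRCm38.p6, and capitals mark matches on either strand to TTGCNNAA, a word bound by C/EBP factors of the myeloid lineage.
Ngp chr9:110419558-110419857 (+ strand): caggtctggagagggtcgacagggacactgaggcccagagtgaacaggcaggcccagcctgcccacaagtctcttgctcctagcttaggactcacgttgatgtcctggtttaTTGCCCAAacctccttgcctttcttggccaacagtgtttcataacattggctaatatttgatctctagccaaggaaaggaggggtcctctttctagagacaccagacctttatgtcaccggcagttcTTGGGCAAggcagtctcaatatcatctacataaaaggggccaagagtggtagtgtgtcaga
Camp chr9:109849407-109849706 (- strand): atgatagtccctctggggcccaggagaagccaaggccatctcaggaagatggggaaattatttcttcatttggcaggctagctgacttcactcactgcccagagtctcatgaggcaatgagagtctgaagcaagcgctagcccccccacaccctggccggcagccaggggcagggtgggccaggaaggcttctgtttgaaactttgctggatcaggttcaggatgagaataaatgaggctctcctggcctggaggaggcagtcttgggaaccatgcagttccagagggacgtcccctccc
Ltf chr9:111019042-111019341 (+ strand): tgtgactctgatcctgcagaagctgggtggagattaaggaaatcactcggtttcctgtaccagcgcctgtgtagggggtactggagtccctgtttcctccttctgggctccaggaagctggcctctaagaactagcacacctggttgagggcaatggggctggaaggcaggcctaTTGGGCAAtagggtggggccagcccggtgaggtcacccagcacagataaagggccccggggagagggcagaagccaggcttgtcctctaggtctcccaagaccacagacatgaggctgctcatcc
S100a9 chr3:90695672-90695971 (- strand): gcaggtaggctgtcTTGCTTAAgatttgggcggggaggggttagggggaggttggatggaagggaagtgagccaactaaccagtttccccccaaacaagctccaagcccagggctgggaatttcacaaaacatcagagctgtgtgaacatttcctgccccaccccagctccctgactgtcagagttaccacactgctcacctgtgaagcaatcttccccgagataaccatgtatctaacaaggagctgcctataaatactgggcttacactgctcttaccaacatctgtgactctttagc
S100a8 chr3:90668821-90669120 (+ strand): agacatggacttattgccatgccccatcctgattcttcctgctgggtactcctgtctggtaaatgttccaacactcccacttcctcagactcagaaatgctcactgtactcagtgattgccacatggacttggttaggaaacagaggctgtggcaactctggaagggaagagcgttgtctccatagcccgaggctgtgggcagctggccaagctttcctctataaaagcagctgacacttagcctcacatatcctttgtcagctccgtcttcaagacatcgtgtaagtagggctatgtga
The word occurs 2 times in the Ngp promoter, once in that of Ltf and once in that of S100a9, and these letters do not occur in the shown windows of Camp and S100a8. It occurs in 10.8% of the 32851 promoters in the RefSeq table. A match is a description of the sequence and not a measured binding site.

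Secondary granule genes other than Camp moved less. Ltf, which encodes lactoferrin, an iron-binding protein, had a lowest value of -0.0511, a median of 0.0654 and a highest value of 0.504 in rich brains, against -0.217, -0.121 and 0.110 in poor brains. All 40 rich brains lay above the poor median but only 14 above the highest poor brain. Ltf rose by 0.194 ± 0.0168 (SE), or 1.56-fold (adjusted p = 1.05e-16). Lcn2, the secondary granule lipocalin that binds bacterial siderophores, differed by 0.0242 ± 0.0100 (SE, adjusted p = 0.576). Mmp8, neutrophil collagenase, differed by 0.0201 (adjusted p = 0.258), and Mmp9, a gelatinase of late granules, by 0.0270 (adjusted p = 0.171).

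Primary granule genes rose in part. Mpo, myeloperoxidase, had a lowest value of -0.0446, a median of 0.0685 and a highest value of 0.627 in rich brains, against -0.0889, -0.0287 and 0.0682 in poor brains. The SD of Mpo was 0.138 in rich brains and 0.0262 in poor brains, and 20 rich brains lay above every poor brain. Mpo rose 1.37-fold (difference 0.138 ± 0.0178, SE, adjusted p = 7.56e-09). Ctsg, the protease cathepsin G, had a lowest value of -0.03004, a median of 0.0511 and a highest value of 0.351 in rich brains, against -0.105, -0.0302 and 0.146 in poor brains. Its sets overlapped, with all 40 rich brains above the poor median, and it rose 1.31-fold (adjusted p = 9.53e-10). The companion proteases did not pass the test: Elane, neutrophil elastase, differed by 0.0118 ± 0.00556 (SE, adjusted p = 0.669) and Prtn3, proteinase 3, by 0.0106 ± 0.00600 (SE, adjusted p = 0.699).

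Chil3, a chitinase-like protein of neutrophil precursors and macrophages, had a lowest value of -0.352, a median of -0.214 and a highest value of -0.0782 in rich brains, against -0.510, -0.336 and -0.206 in poor brains. It rose 1.34-fold (adjusted p = 7.38e-11), but its 2 probes disagreed in size, with differences of 0.239 and 0.0152, and near-identical family members may share the signal. Anxa1, annexin A1, an abundant cytosolic protein of neutrophils, rose by 0.0691 ± 0.0137 (SE, adjusted p = 0.000982). Among subunits of the NADPH oxidase, which makes superoxide, the cytosolic Ncf4 rose by 0.0719 (adjusted p = 0.0384), while Ncf1 differed by 0.00243 (adjusted p = 0.935) and the membrane subunit Cybb by 0.0194 (adjusted p = 0.737). With the Y-linked level in the fit Anxa1 differed by 0.0619 (adjusted p = 0.382) and Ncf4 by 0.0551 (adjusted p = 0.976).

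The list of neutrophil granule and cytosol genes held 20 tested members besides the pair of the score. Of these 8 rose (Camp, S100a8, Ltf, Mpo, Chil3, Ctsg, Anxa1 and Ncf4), none fell and 12 did not pass, against 0.322% of all genes called higher. The list was chosen with earlier results of these data known, so the count is a description and not independent evidence. All 20 differences were above 0, with a median of 0.0256, against 0.00130 over all genes. The remaining members that did not pass were Pglyrp1, a peptidoglycan-binding granule protein (0.0344), Padi4, which citrullinates histones (0.0205), Lyz2, lysozyme (0.0205), Ltb4r1, the leukotriene B4 receptor (0.0108), and Cd177, a surface protein of neutrophils (0.00704). Averaged over the list, brains ran between 0.00746 and 0.214 in the rich set (median 0.0653) and between -0.0819 and 0.00778 in the poor set (median -0.0416).

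Markers of mature circulating neutrophils did not pass the test between the sets drawn by both genes of the score. Of 15 receptor and cytokine genes none rose or fell in limma at adjusted p under 0.05. At an unadjusted p under 0.05 there were 5 of the 15, all 5 higher, against 833 of all 11506 genes. Cxcr2, the chemokine receptor of blood neutrophils, differed by 0.0195 ± 0.00649 (SE, adjusted p = 0.316), and Clec4d, a C-type lectin receptor, by 0.0368 ± 0.0122 (SE, adjusted p = 0.316). Csf3r, the receptor of the growth factor G-CSF, differed by 0.00146. Of 10 genes for myeloid transcription factors and growth factor receptors none passed (2 at unadjusted p under 0.05). Gfi1, a repressor needed for granulocytes, differed by 0.0808 ± 0.0352 (SE, adjusted p = 0.628) and Myb, a factor of progenitors, by 0.0449 ± 0.0156 (SE, adjusted p = 0.361). Cebpe, the factor of secondary granule genes, differed by 0.0148. With sets drawn by S100a9 alone Cxcr2 (0.0264, limma, adjusted p = 0.00887) and Clec4d (0.0528, adjusted p = 0.00307) passed. With sets drawn by Ngp alone they did not (adjusted p = 0.618 and 0.386), and Myb did (0.0536, adjusted p = 0.0424). In the slope over rich, intermediate and poor arrays together Cxcr2, Clec4d and Myb passed (limma, adjusted p = 0.0172, 0.0171 and 0.0472).

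**Figure D3:**
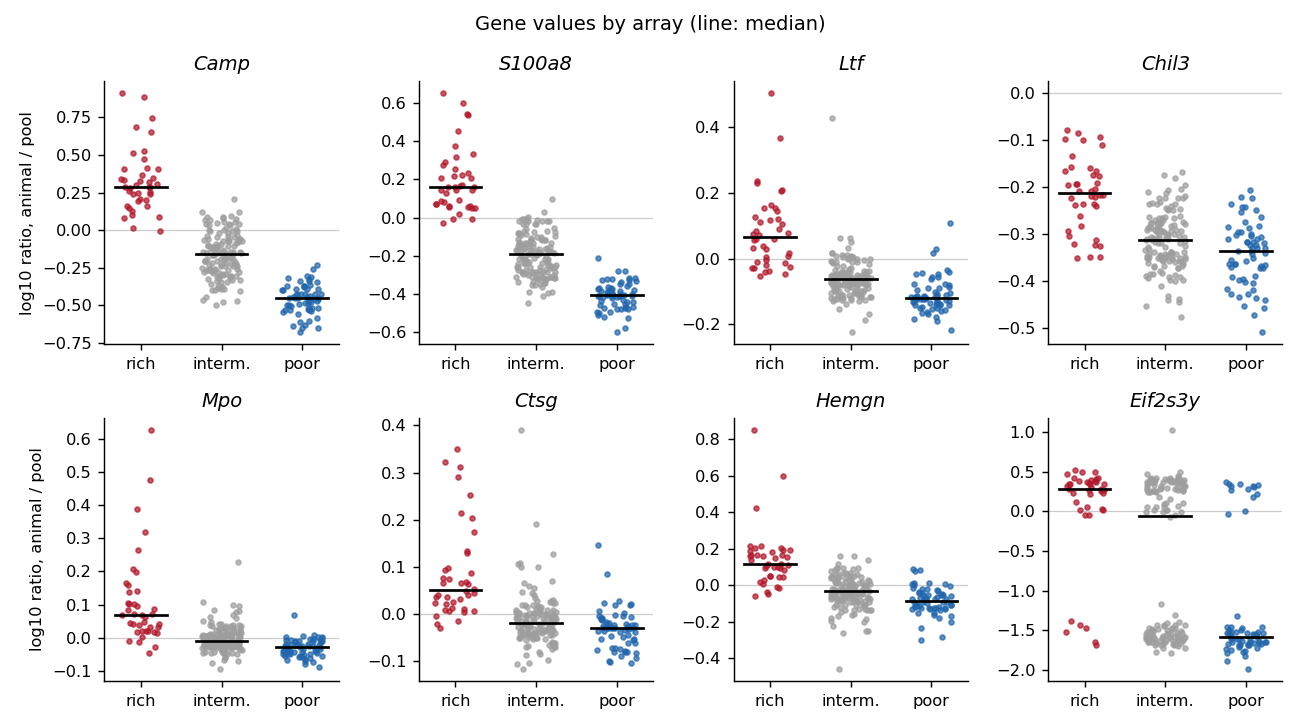
Log10 ratio of animal over pool (vertical axis) of 8 genes in each brain, with 40 rich, 146 intermediate and 62 poor brains from left to right and a black line at each median. The rich and poor sets are apart in Camp and S100a8 and overlap in the other 6 genes, and Eif2s3y falls into an upper and a lower cluster in every set.

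Some other genes of myeloid cells rose. Plac8, a small cysteine-rich protein of myeloid cells, had a lowest value of -0.621, a median of -0.373 and a highest value of 0.0204 in rich brains, against -0.742, -0.548 and -0.244 in poor brains. The sets overlapped, and 37 of 40 rich brains lay above the poor median. Plac8 rose 1.55-fold (difference 0.190 ± 0.0256, SE, adjusted p = 3.14e-08). Ms4a3, a marker of granulocyte and monocyte progenitors, rose 1.28-fold (0.108 ± 0.0173, SE, adjusted p = 7.66e-06), with 15 rich brains above every poor brain. They were the 2 of 11 monocyte and perivascular macrophage genes that rose, against 0.322% of all genes, and Ly6c2 (0.0460) and Ccr2 (0.0248), markers of inflammatory monocytes, did not pass. Mcpt8, a basophil protease, rose by 0.0605 (adjusted p = 0.000193), the 1 call among 9 mast cell, basophil and eosinophil genes. With the Y-linked level in the fit it differed by 0.0549 (adjusted p = 0.158). None of 10 microglia genes passed (limma, none at unadjusted p under 0.05), and their differences ran between 0.00167 and 0.0290. None of 10 B and T lymphocyte genes passed either (5 at unadjusted p under 0.05, all higher, against 833 of all 11506 genes). Their lowest adjusted p was 0.248 for Cd79b, a B cell receptor subunit (0.0179).

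Some red cell and platelet genes rose. Hemgn, a nuclear protein of developing red cells, had a lowest value of -0.0601, a median of 0.116 and a highest value of 0.854 in rich brains, against -0.298, -0.0842 and 0.0893 in poor brains. All 40 rich brains lay above the poor median and 27 above every poor brain. Hemgn rose 1.69-fold (0.228 ± 0.0238, SE, adjusted p = 2.02e-12). Of 10 red cell genes 2 rose, against 0.322% of all genes, the other being Slc4a1, the anion exchanger of the red cell membrane (0.0553, adjusted p = 0.0324). The beta-globin genes Hbb-b1 (0.0711) and Hbb-b2 (0.0731) did not pass, and their near-identical sequences may share signal. Outside the list, Gata1 (0.0582, adjusted p = 0.00957) and Nfe2 (0.0493, adjusted p = 0.000130), transcription factors of red cell and platelet precursors, and Car1, a carbonic anhydrase of red cells (0.0596, adjusted p = 0.00118), rose too. With the red cell score in the fit these 3 did not pass, at 0.0282 for Gata1 (adjusted p = 0.463), 0.0330 for Nfe2 (adjusted p = 0.104) and 0.0378 for Car1 (adjusted p = 0.218). In the same fit Slc4a1 differed by 0.0153 (adjusted p = 0.636) and Hemgn by 0.154 (adjusted p = 1.27e-07), but both are part of that score.

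Ppbp, the platelet chemokine precursor, had a lowest value of -0.540, a median of -0.0643 and a highest value of 0.569 in rich brains, against -0.4996, -0.271 and 0.0920 in poor brains. The lowest rich brain lay below every poor brain and 9 rich brains lay above every poor brain. Ppbp rose 1.65-fold (0.217 ± 0.0365, SE, adjusted p = 2.70e-05). Clec1b, the podoplanin receptor of platelets, rose by 0.0754 (adjusted p = 0.00243). They were the 2 of 8 platelet genes that rose, against 0.322% of all genes. The other 6 did not pass, among them Pf4 (0.0427), the platelet factor chemokine. With the red cell score as a covariate neither Ppbp nor Clec1b passed, Ppbp differing by 0.110 ± 0.0329 (SE, adjusted p = 0.143) and Clec1b by 0.0380 (adjusted p = 0.3999).

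Lrg1 and 4 acute phase genes rose. Lrg1, a secreted leucine-rich glycoprotein of liver, endothelium and neutrophils, had a lowest value of -0.388, a median of 0.0188 and a highest value of 0.463 in rich brains, against -0.473, -0.248 and 0.247 in poor brains. The sets overlapped widely, with 36 of 40 rich brains above the poor median. Lrg1 rose 1.70-fold (0.231 ± 0.0344, SE, adjusted p = 9.85e-07) and was the 1 call among 14 genes of endothelial activation and leukocyte adhesion. With the Y-linked level as a covariate it differed by 0.167 ± 0.0437 (SE, adjusted p = 0.158). Of 15 acute phase genes 4 rose, against 0.322% of all genes. Hp, haptoglobin, which binds free haemoglobin and is also a neutrophil granule protein, had a lowest value of -0.662, a median of -0.529 and a highest value of -0.264 in rich brains, against -0.875, -0.700 and -0.214 in poor brains. All rich brains lay above the poor median, though the highest value of all was in a poor brain, and Hp rose 1.45-fold (adjusted p = 4.64e-09). The others were Ch25h, cholesterol 25-hydroxylase (0.0934, adjusted p = 0.0265), Steap4, a metalloreductase (0.0716, adjusted p = 0.0298), and Osmr, the oncostatin M receptor (0.0547, adjusted p = 0.0396). With the Y-linked level in the fit Hp differed by 0.136 (adjusted p = 0.00151), whereas Ch25h, Steap4 and Osmr differed by 0.0786, 0.0376 and 0.0381 and did not pass (adjusted p = 0.976 for each).

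**Figure D4:**
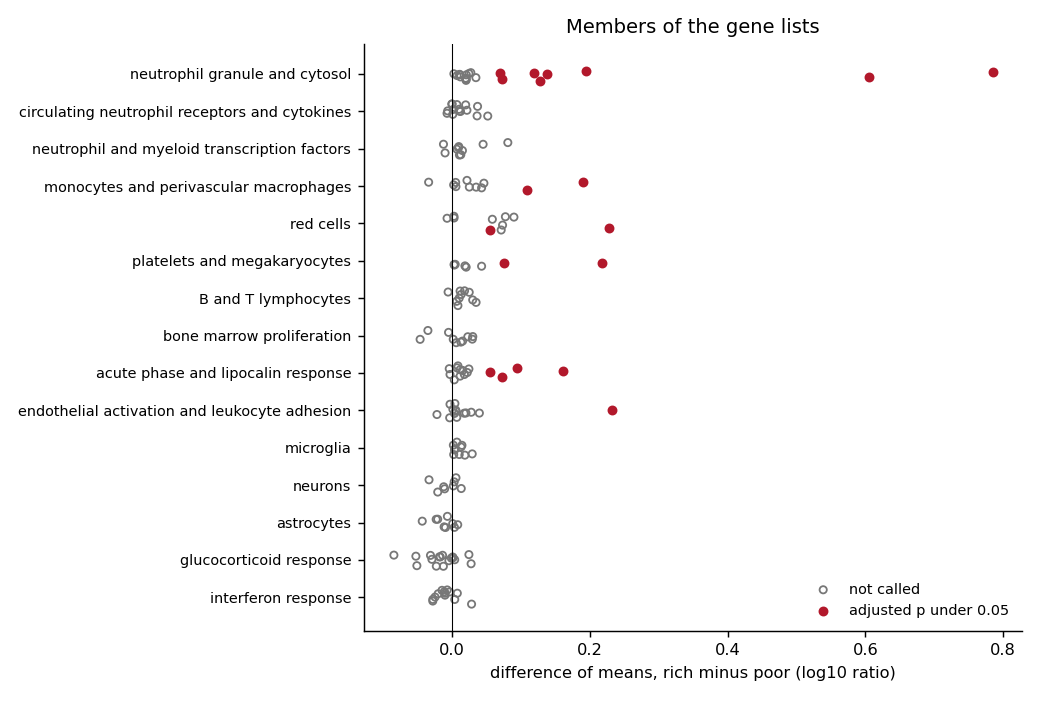
Difference of the set means, rich minus poor, in log10 ratio (horizontal axis) for each measured member of 15 gene lists (rows), with filled red points for genes at adjusted p under 0.05 and open grey points for the rest. The list of neutrophil granule and cytosol genes holds 8 filled points, and the lists of microglia, neurons, astrocytes, glucocorticoid response and interferon response hold none.

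The remaining genes that rose belong to several families. Bcl3, a nuclear cofactor of NF-kappaB, rose 1.33-fold (0.123 ± 0.0213, SE, adjusted p = 6.47e-05), and Slfn4, a Schlafen gene of myeloid cells, by 0.0620 (adjusted p = 2.70e-05). Mmp3, stromelysin, rose by 0.171 ± 0.0420 (SE, adjusted p = 0.0298), and Ccl8, a monocyte chemokine, by 0.132 ± 0.02996 (SE, adjusted p = 0.0105). With the Y-linked level in the fit Bcl3, Mmp3 and Ccl8 differed by 0.0775, 0.130 and 0.0673 and did not pass (adjusted p = 0.976 for each). Acp5, the acid phosphatase of osteoclasts, rose by 0.0921 (adjusted p = 0.000392), the 1 call among 10 bone and cartilage genes, against 0.322% of all genes. Smaller rises, between 0.0318 and 0.0707, were found for Lyz1 (a lysozyme), Ear3 (an eosinophil-associated ribonuclease), Pira1 (a paired immunoglobulin-like receptor), Tk1 (thymidine kinase) and Ctse (cathepsin E). Lyz1, Ear3 and Pira1 have close paralogs that may share signal, and none of the 5 genes passed with the number group, the red cell score or the Y-linked level in the fit. H2-Eb1, an MHC class II chain, differed by 0.1002 ± 0.0259 (SE) and did not pass (adjusted p = 0.0502). It passed in limma with the score from S100a9 alone (adjusted p = 0.0264) or Ngp alone (adjusted p = 0.00303). With the Y-linked level in the fit it differed by 0.0548 and did not pass (adjusted p = 0.976).

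Of the 31 lists examined, 10 held a called gene and 21 held none. The lists with no call had 203 tested genes, of which 34 had an unadjusted p under 0.05 (limma, against 833 of all 11506). Among them were 10 proliferation genes of marrow precursors (lowest adjusted p 0.576, 3 at unadjusted p under 0.05), 8 neuronal genes, 9 astrocyte genes and 8 genes of oligodendrocytes and myelin (lowest adjusted p between 0.686 and 0.713). The 17 glucocorticoid response genes had a median of -0.0140, with Pdk4, a kinase that restrains pyruvate oxidation, at -0.0528 ± 0.0180 (SE, adjusted p = 0.345). Prl, the pituitary hormone prolactin, had the lowest difference of all genes, -0.220 ± 0.148 (SE, adjusted p = 0.704). Of the 42 called genes, 24 stood in a list and 18 in none.

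The largest differences of all belonged to Y-linked genes. Eif2s3y had a lowest value of -1.69, a median of 0.282 and a highest value of 0.525 in rich brains, against -1.99, -1.58 and 0.374 in poor brains. Each set held an upper and a lower cluster, with 85.0% of rich, 50.7% of intermediate and 21.0% of poor brains in the upper one. The cross held females and males, but the labels give no sex for each animal, and the part of sex in these results was not tested. The Eif2s3y means, taken over both clusters, differed by 1.25 ± 0.147 (SE, adjusted p = 3.64e-10). Kdm5d, a Y-linked histone demethylase, differed by 1.03 ± 0.125 (SE, adjusted p = 9.53e-10), and the multicopy Y-linked genes Gm20747 and Ssty1, whose copies share signal, by 0.145 (adjusted p = 0.000976) and 0.118 (adjusted p = 0.00863). These 4 were among the 8 measured genes of the Y chromosome, against 0.322% of all genes called higher.

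Of the 5 genes that fell, 3 lie on the X chromosome and have Y-linked homologs. The X chromosome held 394 of the 11506 genes tested, of which 4 were called (1.02%), these 3 lower and another higher. Over all genes 0.0435% were called lower. Kdm6a, a histone demethylase gene, had a lowest value of -0.760, a median of -0.0417 and a highest value of 0.107 in rich brains, against -0.264, 0.0652 and 0.179 in poor brains. The sets overlapped, with 5 of 40 rich brains above the poor median, and Kdm6a fell by 0.123 ± 0.0215 on the log10 scale (SE, adjusted p = 8.01e-05). Eif2s3x, a translation factor gene, fell by 0.0983 (adjusted p = 0.00341), and Ddx3x, an RNA helicase gene, fell by 0.0699 (adjusted p = 0.00120) over 3 probes that differed by -0.0918, -0.101 and -0.0164. Prl2c3, a prolactin family gene with close paralogs, fell by 0.0756 (adjusted p = 0.0309), and Sim2, a transcription factor gene, fell by 0.0509 (adjusted p = 0.0354). With the Y-linked level in the fit none of the 5 passed, at -0.0300 for Kdm6a, -0.0131 for Eif2s3x and -0.00783 for Ddx3x (adjusted p = 0.976 for each), -0.00313 for Prl2c3 (adjusted p = 0.996) and -0.0496 for Sim2 (adjusted p = 0.855).

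The comparison was repeated with the measures that differed between the sets in the fit. With the number group as a block, 20 genes rose (0.174% of those tested). With the red cell score as a covariate 21 rose (0.183%), and with the Y-linked level, the mean of Eif2s3y and Kdm5d, 13 rose (0.113%) and none fell (limma, 471 genes at unadjusted p under 0.05). The 13 were Camp, S100a8, Ltf, Mpo, Chil3, Ctsg, Hemgn, Plac8, Ppbp, Hp, Ms4a3, Acp5 and Slfn4. With all 3 terms together 6 rose (0.0521%), namely Camp (0.684 ± 0.0409, SE, adjusted p = 8.78e-27), S100a8 (0.542 ± 0.0316, SE, adjusted p = 2.82e-27), Ltf (0.162 ± 0.0235, SE, adjusted p = 2.01e-06), Chil3 (0.107, adjusted p = 0.00606), Mpo (0.114, adjusted p = 0.0254) and Ctsg (0.0842, adjusted p = 0.0497). Hemgn then differed by 0.115 ± 0.0269 (SE, adjusted p = 0.0711), in a fit whose red cell score includes Hemgn itself. The 6 called are genes of the neutrophil granule and cytosol list, which was chosen with earlier results of these data known. The same 6 were called in each of 17 alternative settings, leaving aside fits within a number group. These settings share arrays, and some redrew the sets or added the intermediate brains.

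**Figure D5:**
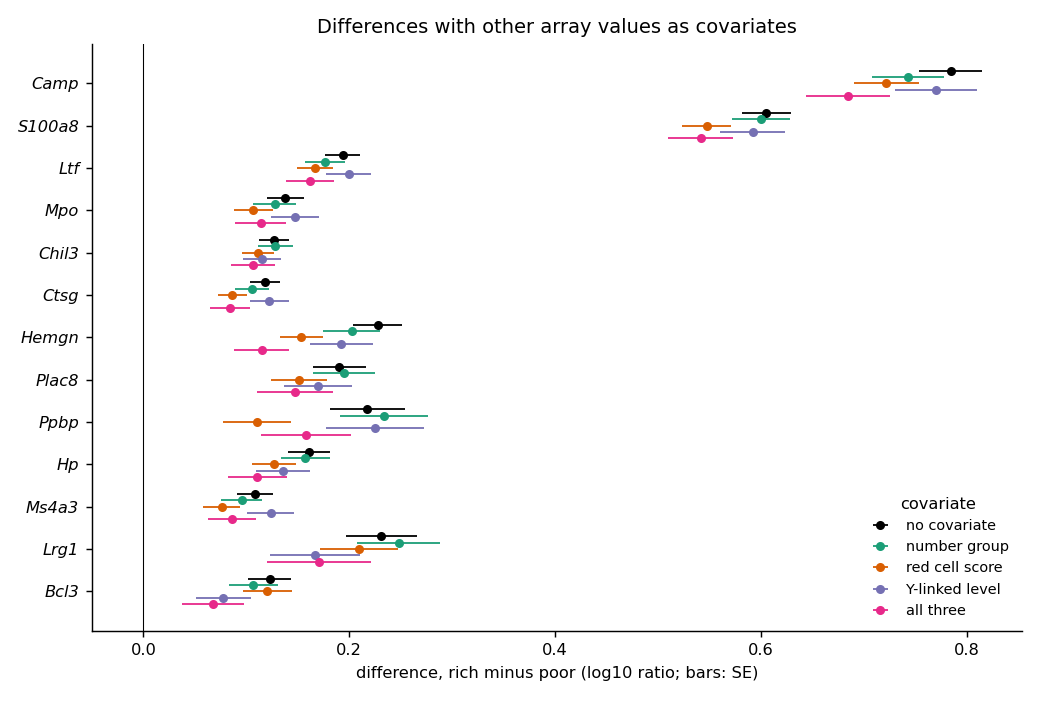
Difference between rich and poor brains in log10 ratio (horizontal axis, points, with bars of 1 SE) for 13 genes (rows) with no covariate, with the number group, the red cell score or the Y-linked level in the fit, and with all 3. Across these fits Camp lies between 0.684 and 0.785, S100a8 between 0.542 and 0.605, Hemgn between 0.115 and 0.228 and Ppbp between 0.110 and 0.234. Hemgn is itself part of the red cell score.

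Within each of the 4 number groups, Camp and S100a8 rose. In rising order of number group Camp differed by 0.770, 0.738, 0.593 and 0.904 (adjusted p between 1.67e-12 and 0.00336) and S100a8 by 0.571, 0.654, 0.540 and 0.693 (adjusted p between 3.63e-11 and 0.000312). Ltf was above 0 in each, at 0.174, 0.216, 0.108 and 0.226, and passed in groups 1 and 4. The number groups held as few as 3 rich or 5 poor brains. These fits had no covariate. In them Eif2s3y differed by 1.32, 0.781, 1.80 and 0.803, and passed in group 3 alone (limma, adjusted p = 3.78e-15). The part of the Y-linked level within the number groups was not tested. No gene passed the test of whether its difference between the sets itself differed between the lower and the upper part of the animal numbers (limma interaction, 0 of 11506 called, 851 at unadjusted p under 0.05, lowest adjusted p 0.0858).

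Brains of intermediate score, which the comparison did not use, were fitted for the slope of each gene on the score. The score again came from Ngp and S100a9 on the same arrays, so the slopes are a description and not independent evidence. Over these 146 brains, 5 genes rose with the score (0.0435% of those tested) and 2 fell (0.0174%). Camp rose by 0.279 ± 0.0139 (SE) in log10 ratio per unit of score (limma, adjusted p = 4.27e-40) and S100a8 by 0.205 ± 0.0104 (SE, adjusted p = 2.04e-39). Hemgn rose by 0.0784 ± 0.0148 (SE, adjusted p = 0.00105), and Eif2s3y (0.882, adjusted p = 0.000374) and Kdm5d (0.720, adjusted p = 0.000374) rose as well. Kdm6a fell by 0.0812 (adjusted p = 0.0107), and Slc16a4, a monocarboxylate transporter family gene, fell by 0.0580 (adjusted p = 0.0294).

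The next genes by size of the test statistic did not pass, among them Lrg1 (slope 0.137 ± 0.0327, SE, adjusted p = 0.0605) and the heat shock gene Hspa1a (0.0602, adjusted p = 0.0605). The other 6 granule and cytosol genes that had risen between the extreme sets did not pass here, with slopes of 0.0398 for Ltf (adjusted p = 0.293), 0.0380 for Ncf4 (adjusted p = 0.748), 0.00746 for Anxa1 (adjusted p = 0.903), 0.0199 for Mpo (adjusted p = 0.678), 0.0274 for Chil3 (adjusted p = 0.748) and 0.00756 for Ctsg (adjusted p = 0.883). Medians of the intermediate brains were -0.0625 for Ltf, -0.00824 for Mpo and -0.0186 for Ctsg, each between the medians of the rich and poor sets. The score of these brains spans -0.729 to 0.908, a smaller range than that between the sets.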

How the data were processed

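Values are the series matrix the authors deposited: 1 log10 ratio of animal (Cy3, per the labels) over pool (Cy5) for each of 23388 probes and 249 arrays. The log base, scale and direction were read from the values. For the scanner, the background correction and the dye normalization, the method is not given in the sources used here. Deposited values end at -2 and 2, and 0.710% were missing. Array medians lay between -0.00627 and 0.0250.

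Probes naming 1 gene alone were averaged per gene if measured on at least 90% of arrays, with gaps filled by the probe mean (13444 probes, 11508 genes, 10816 of them in RefSeq's GRCm38.p6 table). Source names gave the animal numbers (1 title has 399 where the source name has 339). The labels put all samples in 1 group, so the sets rest on Ngp and S100a9 alone. The members and lists were chosen with earlier results of these data known.

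limma 3.58.1 in R 4.3.3 (lmFit, eBayes, Benjamini-Hochberg) fitted the 11506 genes other than Ngp and S100a9. Tested on simulated data for rich against poor over 11506 genes, limma recovered most differences and also called 9 unchanged genes. It recovered 37, 47, 49 and 50 of 50 differences of 0.05, 0.1, 0.2 and 0.4. In the measured data the spread of some genes differed between the sets (Mpo SD 0.138 in rich and 0.0262 in poor brains). The part of unequal spread in the SE and p-values was not tested. Animals are single arrays, so p-values measure the spread between animals with array error in it, and their number limits the precision. Named genes were the granule list, the 15 other largest called rises and 10 largest called falls, 2 members of each other list by t, and the 10 largest slopes. Other called genes and list members were named after their values were seen. Alternatives were other set sizes, single-gene scores, fills, centring, animal 144 kept, wide arrays left out, and animal number, Y-linked level and red cell score in the fit.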

Additional observations from a re-analysis of the deposited data

Results flagged for a closer look

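Probes without a gene symbol were outside the comparison of genes. Of 9561 such probes, 10 rose and 1 fell in rich relative to poor brains (limma, adjusted p under 0.05, 575 at unadjusted p under 0.05), which is 0.115% of them. The largest difference was 1.42 on the log10 scale, or 26.4-fold. Among the genes with a symbol the largest was 1.25, for the Y-linked Eif2s3y. The fit of these probes had no covariate, and the part of the Y-linked level in their differences was not tested.

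Animal 144, which the rule leaves out, had a score of 3.25 on the scale of the other brains, above that of every other brain. Its log10 ratios were 0.499 for Ngp, 1.12 for S100a9, 0.725 for Camp and 1.11 for S100a8. The SD of its array over probes was 0.392, against a median of 0.0764 and a highest value of 0.258 in the others. With this animal kept, 29 genes rose and 5 fell, of which 26 and 4 were the same genes as without it.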

How the results depend on the processing

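Counts of genes that rose and fell (37 and 5) moved most with how the score was built: the score from Ngp alone gave 138 and 112, of which 23 and 4 were among the 37 and 5, and S100a9 alone gave 77 and 34 (34 and 5 shared). A slope on the score over rich, intermediate and poor arrays together gave 83 and 76. The 25 highest against the 25 lowest arrays gave 24 and 3, and 62 against 62 gave 34 and 9. The counts were 20 and 2 with the number group as a block, 18 and 2 with 12 smaller number groups, 21 and 6 with the red cell score, 13 and 0 with the Y-linked level and 6 and 0 with all 3 terms (292 genes at unadjusted p under 0.05). Single number groups, which have fewer arrays, gave 3, 2, 4 and 8 rises and 0, 0, 1 and 0 falls (limma, 411, 270, 597 and 213 genes at unadjusted p under 0.05). In the intermediate brains the 2 falling slopes became 5 with the number block and 6 with the red cell score. The cause of the other moves was not tested. Filters, gaps, the ends of the scale, median centring, the eBayes settings and leaving out the 12 widest arrays gave between 35 and 38 rises and 5 falls.

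Differences turned below 0 in number group 3 alone for Ncf4 (-0.0189), Slc4a1 (-0.00442), Gata1 (-0.0114), Pira1 (-0.0155), Tk1 (-0.000693) and Ctse (-0.00546), in number group 4 alone for Ssty1 (-0.00985), and for Kdm5d with the Y-linked level (-0.0161) or all 3 terms (-0.0149), where Kdm5d is part of the covariate. Adding the number groups alone makes 21 settings, and Camp and S100a8 were called in all of them. No paired analysis was possible because the labels give 1 group and number the animals, not replicates. Signal over background is unknown, so weak probes cannot be set apart.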
